A study of Homo sapiens with 33 samples.

Results

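Karpas422 cells that had been given the PRC2 inhibitor EED226 at 5 µM for 72 h were compared with Karpas422 cells that had been given the solvent DMSO for 72 h. The comparison holds 6 of the 33 arrays of the series, 3 per group, chosen by the sample titles, and was read over all 19775 genes. Karpas422 is an established human line of diffuse large B cell lymphoma, and the series title calls it EZH2 mutant, so treated and control cells share that background. The other arrays are untreated cells at 0 h and cells under EED226 or DMSO at 8, 24 and 48 h and 6 days. They entered the estimate of the spread, and the 48 h and 6-day pairs served for comparison. All values come from 1 cell line. According to the design text each condition was run as biological triplicates with an EZH2 inhibitor, whereas the sample titles name EED226, which binds the EED subunit. The protocol also names a compound EI1, and treated samples were taken as EED226 from their titles.

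PRC2 is the Polycomb complex that methylates histone H3 at lysine 27. EZH2 or EZH1 is its catalytic subunit, EED binds the finished mark and stimulates the enzyme, and SUZ12 holds the core together. Genes under this mark are kept silent, and germinal-centre B cells, from which this lymphoma type derives, rely on EZH2 while they divide. Type I interferons are made after sensors such as MDA5 or RIG-I meet foreign or endogenous nucleic acids. They signal through JAK kinases to STAT proteins and IRF9, which bind the interferon-stimulated response element upstream of their target genes.

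Levels are RMA values on the log2 scale, on which 1 unit is a factor of 2, and a gene with several probe sets was read from its brightest. Array medians lay between 4.06 and 4.18, and arrays within a 72 h group correlated at 0.9955 or above. None of the 9 B lineage markers lay below the lowest array median in the 6 arrays, with CD20 (MS4A1) at 13.10, 12.90 and 12.99 under EED226 and 12.55, 12.49 and 12.42 under DMSO. Some features differed between arrays. The ACTB gap, the 3′ level minus the 5′ level of the control probes for that transcript, widens when RNA is shorter. It was 3.26, 3.34 and 3.74 in EED226 arrays and 3.05, 3.08 and 3.16 in DMSO arrays. The same gap for GAPDH was 0.30, 0.32 and 0.44 in EED226 arrays, against 0.24, 0.23 and 0.24 in DMSO arrays. With the ACTB gap of each array as a term in the fit, a choice made after seeing the data, 4318 genes passed at 72 h. The DMSO array of replicate 3 also stood apart: 27 genes lay at least 1 log2 unit above the mean of the other DMSO arrays there, against 0 genes for each of DMSO replicates 1 and 2. Genes of the amino acid response were among them, and they are given below with and without that array. In EED226 replicate 3, 13 genes lay at least 1 unit below the mean of the other EED226 arrays. The same count was 0 and 1 in EED226 replicates 1 and 2, and 6, 5 and 3 in DMSO replicates 1, 2 and 3.

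At 72 h, 4536 of the 19775 genes passed an adjusted p of 0.05 in limma, 22.9% of all tested. Of these, 2321 were higher under EED226 (11.7%) and 2215 were lower (11.2%), so the numbers in each direction were close. Their sizes were not: the median difference was 0.60 among the genes that rose and -0.36 among those that fell, and 533 genes rose at least 2-fold (2.7%) while 19 fell that far (0.0961%). These 2-fold counts depend on how probe sets are combined: with the mean of all probe sets of a gene, 333 rose and 12 fell that far. At least 4-fold rises were called for 105 genes (0.531%). The median over all genes was -0.02. Counts given for lists below stand beside the shares of all genes that rose (11.7%) and fell (11.2%). In 123 of the 533 genes the DMSO mean lay below the lowest array median, which leaves those folds resting on dim values. With no threshold on p, the 3 EED226 values lay wholly above or below the 3 DMSO values for 7275 genes (36.8%), and an unadjusted p under 0.05 was reached by 30.4%.

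**Figure D1:**
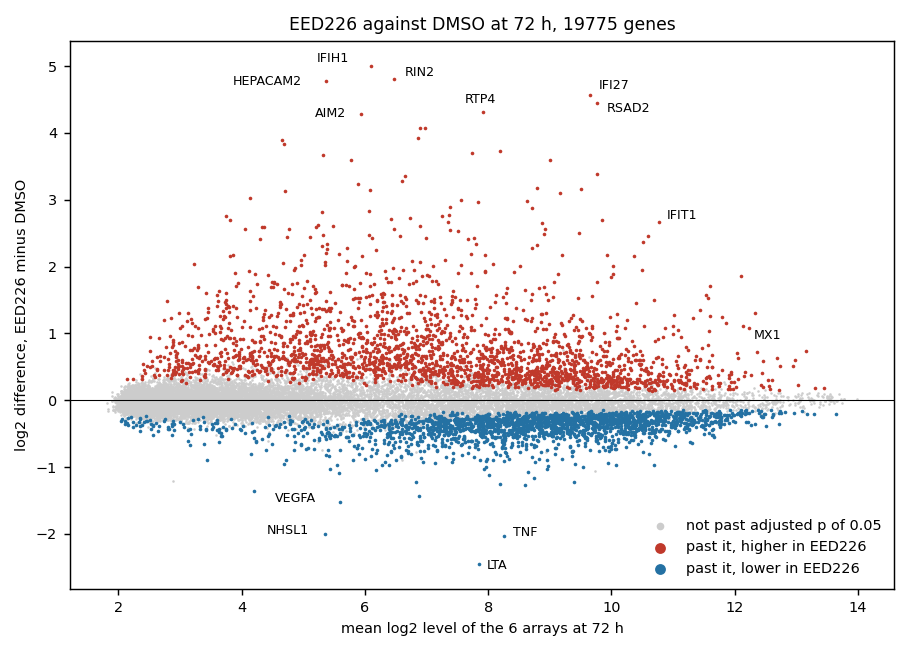
Difference between EED226 and DMSO at 72 h (log2, vertical) against the mean log2 level over the 6 arrays (horizontal), 1 point per gene. Red points are the 2321 genes that rose and blue points the 2215 that fell at an adjusted p of 0.05; the rises reach 5.01 (IFIH1) and the falls -2.45 (LTA).

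The mRNAs of the PRC2 core differed little. EED, the subunit that the compound binds, read 11.93, 11.89 and 11.80 under EED226, against 12.12, 12.10 and 12.06 under DMSO. That is a difference of -0.22 ± 0.05 (SE; adjusted p = 0.00165), which did not pass with the mean of all its probe sets (-0.13, adjusted p = 0.448) or in the 6 arrays alone (adjusted p = 0.060). EZH2 differed by -0.21 ± 0.08 (adjusted p = 0.0615), SUZ12 by -0.12 ± 0.07 (adjusted p = 0.292) and EZH1 by 0.20 ± 0.08 (adjusted p = 0.0725), and none of these passed. JARID2, an accessory subunit that guides the complex to chromatin, rose: 7.02, 7.07 and 6.99 under EED226 against 6.34, 6.36 and 6.29 under DMSO, a difference of 0.69 ± 0.10 (adjusted p = 4.90e-06). PHF19, another accessory subunit, fell by 0.36 (adjusted p = 0.00944), with an adjusted p of up to 0.0751 when 1 array was left out. Of the 13 measured PRC2 genes, 2 rose and 3 fell, and without EED226 replicate 3 or without DMSO replicate 1 the list held 1 rise and 1 fall. Of 16 PRC1 genes, 4 rose and 5 fell, led by PCGF5, which rose 2.39-fold, and by the reader CBX7, which rose by 0.65 (adjusted p up to 0.0511 when 1 array was left out). An mRNA level does not measure the activity of an inhibited complex.

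Nucleic acid sensors and interferon-stimulated genes were among the largest rises at 72 h. IFIH1 encodes the RNA sensor MDA5 and had the largest rise of all genes when each was read from its brightest probe set. Its levels were 8.73, 8.27 and 8.82 under EED226, against 3.67, 3.86 and 3.27 under DMSO. The groups lay 5.01 ± 0.17 apart, a 32.2-fold difference (adjusted p = 1.13e-17), with the DMSO values below the lowest array median. With the mean of its probe sets the IFIH1 difference was 2.81, below HEPACAM2 at 4.78 and IFI27 at 4.57 by the same measure. AIM2, a sensor of cytosolic DNA, read 8.26, 8.26 and 7.74 under EED226, against 3.81, 3.84 and 3.75 under DMSO, a rise of 4.29 ± 0.21 from dim values. RIGI, the sensor of short double-stranded RNA, was already well expressed in DMSO cells. It read 10.99, 10.96 and 11.14 under EED226, against 8.99, 9.06 and 9.01 under DMSO, a 4.03-fold rise. TLR7, the endosomal receptor for single-stranded RNA, rose by 2.75 ± 0.26.

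Not all sensors moved that way. Of the 19 measured, 11 rose, 2 fell and the median difference was 0.45, beside -0.02 over all genes. CGAS, the cytosolic DNA sensor upstream of STING, fell: 5.91, 5.87 and 5.58 under EED226 against 6.82, 6.75 and 6.18 under DMSO, a difference of -0.79 ± 0.17. TLR3, the endosomal receptor for double-stranded RNA, fell by 0.63 (adjusted p = 0.00456). The adaptors differed little, with STING1 at -0.17 (adjusted p = 0.403) and MAVS at 0.06 (adjusted p = 0.652), and neither passed.

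Among 14 interferon ligand and receptor genes, 2 rose and none fell, beside 11.7% higher and 11.2% lower over all genes, and the median was 0.04. IFNB1, the gene of interferon beta, read 5.43, 5.32 and 6.12 under EED226, against 3.02, 3.15 and 2.92 under DMSO. All 3 treated arrays lay above the controls, by 2.59 ± 0.20 (adjusted p = 7.17e-11), and the DMSO values were below the lowest array median. IFNLR1, the ligand-specific chain of the interferon lambda receptor, rose by 1.22 ± 0.30. The type I receptor chain IFNAR1 differed by -0.07 (adjusted p = 0.761) and IFNGR1 by 0.06 (adjusted p = 0.646), while IFNG was dim in both groups.

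The factors that carry the signal rose by smaller amounts than IFIH1 and AIM2. Of 17 IRF, STAT, JAK and feedback genes, 10 rose and 1 fell, with a median of 0.52. IRF7, which amplifies interferon transcription, read 9.17, 9.10 and 9.43 under EED226, against 7.94, 7.75 and 7.95 under DMSO, a rise of 1.35 ± 0.12. IRF1 rose by 1.40 ± 0.13 and IRF9 by 0.98 ± 0.09. STAT3 rose by 1.06 and JAK1 by 1.03. The negative regulators were among the largest in this list: USP18, which blocks the type I receptor, rose 9.01-fold, at 10.47, 10.20 and 10.47 under EED226 against 7.26, 7.25 and 7.12 under DMSO, and SOCS1, an inhibitor of JAK kinases, rose by 1.76 ± 0.18. The exception was IRF3, the factor that sensors activate directly, at -0.29; its call is lost without EED226 replicate 3 or either of DMSO replicates 1 and 2.

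Of the 51 measured interferon-stimulated effector genes, 44 rose, none fell and 7 did not pass. Their median difference was 1.56, and 38 rose at least 2-fold. IFI27, a mitochondrial interferon-stimulated protein, read 11.70, 11.72 and 12.39 under EED226, against 7.33, 7.17 and 7.61 under DMSO, a 23.8-fold rise. RSAD2, the antiviral enzyme viperin, read 11.91, 11.80 and 12.28 under EED226, against 7.41, 7.45 and 7.77 under DMSO, a 21.9-fold rise. RTP4, a chaperone-like interferon-stimulated protein, read 10.05, 9.90 and 10.26 under EED226, against 5.79, 5.85 and 5.63 under DMSO, a 19.9-fold rise. In all 3 genes every treated array lay above every DMSO array.

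Some effectors were already bright in DMSO cells. MX1, an antiviral GTPase, read 12.75, 12.61 and 12.69 under EED226, against 11.57, 11.62 and 11.54 under DMSO, a 2.15-fold rise, while its dimmer paralogue MX2 rose 8.93-fold. IFIT1, which binds viral RNA lacking a host cap, read 12.10, 12.08 and 12.13 under EED226, against 9.38, 9.36 and 9.58 under DMSO, a 6.33-fold rise. ISG15, the ubiquitin-like modifier, was the brightest: 13.54, 13.50 and 13.53 under EED226 against 12.76, 12.74 and 12.85 under DMSO. Its difference of 0.74 ± 0.25 had an adjusted p of 0.0312, with an SE that includes the spread within groups of other times. ISG15 did not pass when any 1 of the 6 arrays was left out, with a highest adjusted p of 0.0816. In a fit of the 6 arrays alone it passed (adjusted p = 0.00021). Values near the top of an array's range can be compressed, so folds of bright and dim genes are not on the same footing. The 7 members that did not pass were HERC5, GBP2, GBP4, GBP5, CXCL9, CXCL10 and SIGLEC1. All but SIGLEC1 were dim in both groups.

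**Figure D2:**
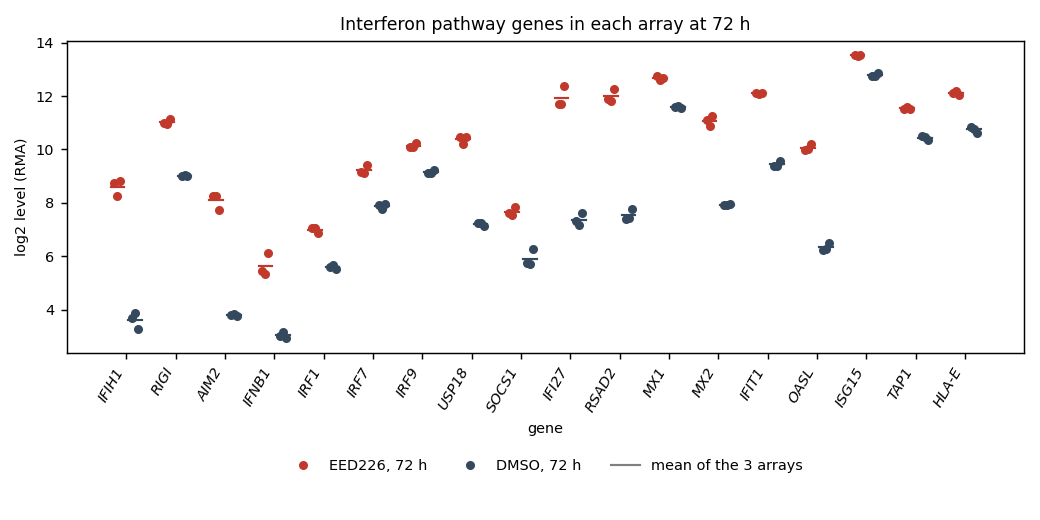
Log2 level of 18 interferon pathway genes in each array at 72 h, with EED226 (red) left of DMSO (dark); each point is 1 array and each line the mean of 3. The EED226 points lie above the DMSO points in all 18 genes, by the widest margin in IFIH1 and the narrowest in ISG15.

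Many promoter windows of the effector genes hold a common motif. RefSeq promoter windows run from 250 bases before to 50 bases after the annotated start of each gene, read 5′ to 3′ on the gene's strand. Of the 19775 genes, 15384 matched a window by symbol. The core of the interferon-stimulated response element is GAAA, then 2 bases of any kind, then GAAA again, and it was searched on both strands. It occurs in 3.65% of all 27305 windows and in 2.94% of those of tested genes. It occurs in 6.07% of windows of genes that rose, in 12.4% of those that rose at least 2-fold, and in 1.86% of those that fell. Of 41 effector genes with a window, 29 hold the motif (70.7%). It is held by 6 of 13 MHC class I windows (46.2%), 5 of 12 TRIM windows (41.7%), 4 of 13 sensor windows (30.8%) and 1 of 13 windows of IRF, STAT and JAK genes, that of SOCS1. The windows of RSAD2 and XAF1 do not hold these exact letters. Shown here are the 6 risen sensor, factor and effector genes with the largest rise whose window holds the motif, which is in capitals on whichever strand it lies (on the opposite strand it reads TTTC, 2 bases, TTTC).
IFIH1 (GRCh38.p14 chr2:162318635-162318934, minus strand): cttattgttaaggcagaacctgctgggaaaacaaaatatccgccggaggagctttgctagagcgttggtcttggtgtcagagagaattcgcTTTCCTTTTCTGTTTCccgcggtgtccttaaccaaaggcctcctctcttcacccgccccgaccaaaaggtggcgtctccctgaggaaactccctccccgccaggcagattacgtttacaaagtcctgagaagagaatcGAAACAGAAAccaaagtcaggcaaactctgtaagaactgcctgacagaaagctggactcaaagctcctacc
IFI27 (GRCh38.p14 chr14:94110486-94110785, plus strand): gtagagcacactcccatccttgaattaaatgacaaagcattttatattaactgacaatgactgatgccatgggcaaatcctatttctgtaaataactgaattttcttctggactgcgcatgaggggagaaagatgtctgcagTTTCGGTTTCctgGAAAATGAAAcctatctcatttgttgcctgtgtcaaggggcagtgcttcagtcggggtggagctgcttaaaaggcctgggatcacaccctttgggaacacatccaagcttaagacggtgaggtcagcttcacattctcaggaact
RTP4 (GRCh38.p14 chr3:187368135-187368434, plus strand): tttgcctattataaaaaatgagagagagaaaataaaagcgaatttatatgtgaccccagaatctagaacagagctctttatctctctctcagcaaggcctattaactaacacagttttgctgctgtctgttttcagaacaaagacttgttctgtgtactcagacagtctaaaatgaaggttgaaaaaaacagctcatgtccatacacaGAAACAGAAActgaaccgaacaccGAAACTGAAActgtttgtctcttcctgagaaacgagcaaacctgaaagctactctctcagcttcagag
AIM2 (GRCh38.p14 chr1:159076717-159077016, minus strand): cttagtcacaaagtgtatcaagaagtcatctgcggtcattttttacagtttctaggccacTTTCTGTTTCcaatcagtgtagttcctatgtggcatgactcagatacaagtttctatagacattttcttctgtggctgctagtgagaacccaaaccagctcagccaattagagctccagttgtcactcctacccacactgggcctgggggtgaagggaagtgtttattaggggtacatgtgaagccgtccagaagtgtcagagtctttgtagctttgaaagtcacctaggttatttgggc
IFI44L (GRCh38.p14 chr1:78620198-78620497, plus strand): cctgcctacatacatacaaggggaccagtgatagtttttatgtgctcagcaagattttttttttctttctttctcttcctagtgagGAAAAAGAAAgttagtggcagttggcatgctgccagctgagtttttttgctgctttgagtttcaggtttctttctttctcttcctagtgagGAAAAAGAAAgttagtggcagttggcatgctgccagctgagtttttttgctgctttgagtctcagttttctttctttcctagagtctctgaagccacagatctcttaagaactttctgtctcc
LGALS3BP (GRCh38.p14 chr17:78979874-78980173, minus strand): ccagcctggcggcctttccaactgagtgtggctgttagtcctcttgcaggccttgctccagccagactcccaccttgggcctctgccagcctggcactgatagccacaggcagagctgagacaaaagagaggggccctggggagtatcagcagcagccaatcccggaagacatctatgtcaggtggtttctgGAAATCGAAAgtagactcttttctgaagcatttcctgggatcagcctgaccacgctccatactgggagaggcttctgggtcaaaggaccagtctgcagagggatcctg
In IFIH1 there are 3 matches, of which a pair overlaps, and in IFI27, RTP4 and IFI44L there are 2. The matches in RTP4 begin 42 and 18 bases before the annotated start. A match describes letters and does not show that a factor binds there.

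Genes of antigen presentation also rose, several from high levels. The MHC class I list had 13 rises and 1 fall among 16 genes, with a median of 0.91. TAP1, a subunit of the peptide transporter, read 11.52, 11.60 and 11.54 under EED226, against 10.52, 10.46 and 10.35 under DMSO, a 2.16-fold rise. HLA-E read 12.11, 12.18 and 12.02 under EED226, against 10.86, 10.78 and 10.64 under DMSO, a 2.54-fold rise. HLA-B rose by 1.08 ± 0.17. HLA probe sets can bind transcripts of related HLA genes, so values of single HLA genes are uncertain. B2M, the shared light chain, rose by 0.18 from a level of 13.4, and did not pass in the 6 arrays alone (adjusted p = 0.103) or with the mean of its probe sets (0.25, adjusted p = 0.150). CANX, the chaperone calnexin, fell by 0.25.

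The 4 immunoproteasome genes all rose, with a median of 0.60: PSME1 rose by 0.59 and PSMB9, a catalytic subunit induced by interferon, by 0.67. The 26 genes of the constitutive proteasome went the other way, with 14 lower, none higher and a median of -0.17. PSMD12, a lid subunit, fell by 0.44 and PSMC3, a base ATPase, by 0.42. Fitted on the 6 arrays alone, the list held 8 falls. Of 15 TRIM family genes, which include antiviral ubiquitin ligases, 9 rose and 1 fell. TRIM21, the cytosolic antibody receptor, rose by 1.55 ± 0.10 and TRIM22 by 1.22 ± 0.10. TRIM28, a corepressor of endogenous retroviruses, fell by 0.36, a call lost without EED226 replicate 1, EED226 replicate 3 or DMSO replicate 1 and with the ACTB gap in the fit.

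Class II presentation changed little by comparison. Of 17 genes, 8 were higher and none lower, and the median was 0.21: CD74, the invariant chain, rose by 0.50 ± 0.06, HLA-DRA by 0.39 ± 0.06, and the transactivator CIITA differed by 0.23 (adjusted p = 0.415). Of 20 costimulatory and checkpoint ligand genes, 7 rose and none fell. CD48, the ligand of CD244, read 6.78, 6.58 and 6.66 under EED226, against 4.44, 4.31 and 4.71 under DMSO, a 4.54-fold rise. CD86, a ligand of CD28, read 8.23, 8.22 and 8.26 under EED226, against 6.65, 6.61 and 6.57 under DMSO, a 3.09-fold rise. CD40 rose by 0.91 ± 0.12. CD80 and CD274, the gene of PD-L1, stayed below the lowest array median in both groups.

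B cell genes split rather than moving together. Of 26 germinal-centre and B cell factors, 12 rose and 5 fell, with a median of 0.08. BACH2, a repressor that holds off plasma cell differentiation, read 8.23, 7.82 and 8.52 under EED226, against 5.38, 5.69 and 5.69 under DMSO, a 6.08-fold rise. TCL1A, a coactivator of AKT, rose by 2.08 ± 0.23 and FOXO1, which AKT restrains, by 1.08 ± 0.08. BCL6, the master repressor of the germinal centre, differed by 0.07 (adjusted p = 0.467). PAX5 differed by -0.27 with an adjusted p of 0.0232 that reached 0.120 when single arrays were left out and 0.193 with the ACTB gap in the fit. S1PR2, a receptor that confines B cells to germinal centres, fell: 6.91, 6.92 and 7.04 under EED226 against 7.97, 7.75 and 7.92 under DMSO, a difference of -0.92 ± 0.10. Without EED226 replicate 2, EED226 replicate 3 or DMSO replicate 1, the list held 3 falls.

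Plasma cell genes gave a mixed account as well, with 4 of 19 higher and 2 lower. Over all genes 11.7% were higher and 11.2% lower. JCHAIN, which links secreted antibodies, read 9.35, 9.29 and 9.35 under EED226, against 6.39, 6.63 and 6.05 under DMSO, a 7.85-fold rise. CD38 rose by 1.91 ± 0.20 and ELL2, an elongation factor of antibody transcripts, by 1.26 ± 0.18 from a dim level. The regulators did not follow. PRDM1 differed by 0.18 (adjusted p = 0.333) and IRF4 by -0.03 (adjusted p = 0.931), while XBP1 fell by 0.82 and SDC1, the plasma cell antigen CD138, by 0.58. XBP1 was 7.33, 7.12 and 7.03 under EED226 and 7.69, 7.71 and 8.54 under DMSO, and the difference was -0.54 without DMSO replicate 3.

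Of 25 genes of the B cell receptor and its proximal signalling, 7 rose and 3 fell. FCRL3, an Fc receptor-like protein, rose 3.70-fold, and PRKCB, the kinase between the receptor and NF-kB, rose by 1.08 ± 0.16. PTPN6, the phosphatase SHP-1 that dampens the receptor, fell: 8.05, 8.10 and 8.20 under EED226 against 9.13, 9.06 and 9.38 under DMSO, a difference of -1.08 ± 0.13. CD79A and CD79B, the signalling chains, differed by -0.11 and 0.15 and did not pass. ITGB2, the beta chain of LFA-1, fell by 1.00 ± 0.09, and its antisense neighbour ITGB2-AS1 by 1.26. Signals of such overlapping pairs may not be separate.

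The largest fall of all genes was that of LTA, lymphotoxin alpha. It read 6.61, 6.69 and 6.60 under EED226, against 9.0, 8.97 and 9.26 under DMSO, a difference of -2.45 ± 0.18 (adjusted p = 3.16e-11). TNF, its neighbour in the MHC region, read 7.01, 7.34 and 7.37 under EED226, against 9.20, 9.16 and 9.43 under DMSO, a difference of -2.02 ± 0.15. LTB, lymphotoxin beta, read 8.52, 8.99 and 8.85 under EED226, against 9.91, 9.87 and 10.25 under DMSO, a difference of -1.22 ± 0.21. All 3 cytokines of this cluster were thus lower in each treated array than in any DMSO array. Of the 17 genes of TNF family and death signalling, 5 rose and 4 fell. The rises included CASP4, an inflammatory caspase, by 2.27 ± 0.23, CASP1 by 1.74 ± 0.15 and TNFRSF21, death receptor 6, by 2.17 ± 0.16, the last 2 from dim levels. The receptor FAS differed by -0.01 (adjusted p = 0.954).

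NF-kB pathway genes gave 3 rises and 1 fall among 16, beside 11.7% of all genes higher and 11.2% lower. CYLD, a deubiquitinase that restrains the pathway, rose by 1.23 ± 0.10 and NFKBIZ, an atypical inhibitor, by 1.40 ± 0.18. NFKBIA differed by -0.23 (adjusted p = 0.0879) and TNFAIP3 by 0.35 (adjusted p = 0.231). Of 14 BCL2 family genes, 2 rose and 3 fell. MCL1 rose by 0.49 ± 0.06, though with the mean of its probe sets it was at 0.12 and did not pass (adjusted p = 0.356). BID fell by 0.45, and BCL2 itself differed by -0.10 (adjusted p = 0.686). PMAIP1, the BH3-only gene NOXA, read 9.64, 9.64 and 9.50 under EED226, against 8.17, 8.13 and 10.23 under DMSO. Its difference of 0.75 did not pass (adjusted p = 0.0855), and without DMSO replicate 3 it was 1.44 (adjusted p = 3.52e-07).

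Among 24 core and linker histone genes, 9 were higher, none was lower and 15 did not pass, and the median was 0.14. With array medians subtracted, in the 6 arrays alone or with the mean of probe sets, 1 was lower. H2AC6 read 6.55, 6.42 and 6.86 under EED226, against 2.96, 2.49 and 2.87 under DMSO, a 14.3-fold rise from a dim level. H4C8 rose by 1.75 ± 0.19 and H2BC21 by 1.16 ± 0.14, both from dim levels. Histone genes are near-identical copies, so a probe set may bind several. The linker histone H1-2 differed by 0.23 (adjusted p = 0.613).

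Genes of growth arrest rose: 13 of 17 were higher and none lower, with a median of 0.67. YPEL5 read 9.01, 8.89 and 9.0 under EED226, against 6.49, 6.58 and 6.84 under DMSO, a 5.03-fold rise. BTG1, an antiproliferative protein mutated in this lymphoma type, rose by 1.16 ± 0.10, and TXNIP, an inhibitor of glucose uptake, by 0.80 ± 0.11. The stress-induced GADD45A, from the p53 target list, rose by 2.48 ± 0.11, at 10.07, 9.99 and 10.37 under EED226 against 7.51, 7.62 and 7.84 under DMSO. Most of that list did not follow, with 3 of 14 higher and 1 lower. CDKN1A, the gene of p21, read 6.21, 5.90 and 6.17 under EED226, against 5.75, 5.48 and 7.01 under DMSO. It differed by 0.01 (adjusted p = 0.986), and by 0.47 without DMSO replicate 3 (adjusted p = 0.0329).

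Genes of the cell cycle fell by less than 2-fold but in large numbers. Of 22 genes that license replication origins, 21 fell and none rose, with a median of -0.51. CDC45, part of the replicative helicase, read 8.96, 9.02 and 8.80 under EED226, against 9.92, 9.83 and 9.90 under DMSO, a difference of -0.96 ± 0.11. MCM2, a helicase subunit, read 9.66, 9.83 and 9.62 under EED226, against 10.51, 10.33 and 10.46 under DMSO, a difference of -0.73 ± 0.09. CDC6, which loads the helicase, fell by 0.87 and ORC1, a subunit of the origin complex, by 0.85. In each of these the groups did not overlap.

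Of 38 DNA synthesis and replication-coupled repair genes, 34 fell and none rose, with a median of -0.48. CHEK1, the checkpoint kinase, fell by 0.92 ± 0.13 and POLD1, the catalytic subunit of polymerase delta, by 0.68 ± 0.08. PCNA, the clamp, differed by -0.21 (adjusted p = 0.176) and TYMS by -0.23 (adjusted p = 0.0696). Of 18 genes of the G1/S transition, 14 fell and none rose. CDC25A, a phosphatase that activates CDK2, had the largest fall among them, at 8.49, 8.63 and 8.33 under EED226 against 9.47, 9.55 and 9.37 under DMSO, a difference of -0.98 ± 0.12. E2F2 fell by 0.71 and CCNE1 by 0.45, and CCNE1 did not pass with the mean of its probe sets (-0.18, adjusted p = 0.181).

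Genes of mitosis fell less evenly. Of 48, 25 fell and none rose, with a median of -0.30. CENPM, a centromere protein, fell by 0.98 ± 0.12 and AURKB, the kinase of the chromosomal passenger complex, by 0.56 ± 0.11. CDK1 differed by -0.04 (adjusted p = 0.868). TOP2A ranged between 10.04 and 11.39 under EED226, and between 10.75 and 11.37 under DMSO, and did not pass. Without EED226 replicate 3, the array with the widest ACTB gap, 15 of the 48 fell, and the median was -0.23; with the ACTB gap in the fit, 25 fell. Of 12 mitotic kinesins, 10 fell. The part of RNA length in these small falls was not tested.

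The windows of mitotic and of replication genes were searched for cell cycle motifs. The letters TTTGAA, on either strand, are the CHR element that the DREAM and MMB complexes bind in late cell cycle genes. They occur in 15.4% of all windows and 11.9% of those of tested genes, against 71.1% of 38 mitotic windows and 9 of 12 kinesin windows. The share was 5.26% of 19 licensing windows and 6.06% of 33 DNA synthesis windows. TTTCCCGC, an E2F site, occurs in 1.66% of all windows, in 31.6% of the licensing windows and in 18.2% of the DNA synthesis windows. Another E2F site, TTTGGCGC, occurs in 0.659% of all windows and in 15.8% of the licensing windows. CCAAT, the box that NF-Y binds, occurs in 35.7% of all windows in 78.9% of mitotic, 63.2% of licensing and 51.5% of DNA synthesis windows. All motifs were searched on both strands, and none contains another. Among all genes that fell, 11.8% hold TTTGAA, close to the share of tested genes, and 3.61% hold TTTCCCGC, against 2.18% of tested genes. Shown are the 4 mitotic or kinesin genes with the largest falls among those whose window holds TTTGAA, in capitals on either strand.
CENPN (GRCh38.p14 chr16:81006964-81007263, plus strand): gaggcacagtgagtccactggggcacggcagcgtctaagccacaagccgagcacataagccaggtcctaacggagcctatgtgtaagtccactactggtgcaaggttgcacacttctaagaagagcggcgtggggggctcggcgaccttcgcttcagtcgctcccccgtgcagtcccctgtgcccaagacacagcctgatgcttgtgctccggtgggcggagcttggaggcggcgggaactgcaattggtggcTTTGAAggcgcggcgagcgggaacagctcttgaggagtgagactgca
PLK1 (GRCh38.p14 chr16:23678639-23678938, plus strand): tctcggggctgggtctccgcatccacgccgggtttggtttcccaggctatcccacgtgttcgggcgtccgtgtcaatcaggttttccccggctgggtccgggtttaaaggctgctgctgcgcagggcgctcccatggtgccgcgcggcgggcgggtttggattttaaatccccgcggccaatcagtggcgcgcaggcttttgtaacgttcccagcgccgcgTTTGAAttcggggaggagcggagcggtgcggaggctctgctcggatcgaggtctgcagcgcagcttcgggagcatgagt
KIF15 (GRCh38.p14 chr3:44761544-44761843, plus strand): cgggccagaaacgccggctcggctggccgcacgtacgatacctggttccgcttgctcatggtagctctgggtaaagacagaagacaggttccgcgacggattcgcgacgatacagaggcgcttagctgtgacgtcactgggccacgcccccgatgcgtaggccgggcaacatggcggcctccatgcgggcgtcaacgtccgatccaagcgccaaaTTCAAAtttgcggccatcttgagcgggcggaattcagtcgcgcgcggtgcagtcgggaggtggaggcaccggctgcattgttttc
SPC25 (GRCh38.p14 chr2:168890381-168890680, minus strand): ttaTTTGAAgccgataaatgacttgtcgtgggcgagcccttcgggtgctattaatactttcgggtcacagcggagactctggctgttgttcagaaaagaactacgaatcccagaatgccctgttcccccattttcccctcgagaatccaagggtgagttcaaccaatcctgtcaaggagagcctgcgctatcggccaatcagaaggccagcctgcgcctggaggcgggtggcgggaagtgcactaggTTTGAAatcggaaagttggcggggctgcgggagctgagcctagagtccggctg
CENPN is a centromere protein, PLK1 the kinase that drives mitotic entry and exit, KIF15 a spindle kinesin and SPC25 a subunit of the NDC80 kinetochore complex. PLK1 read 5.34, 5.20 and 5.21 under EED226, against 5.98, 5.89 and 5.49 under DMSO, a difference of -0.54 ± 0.11. KIF15 read 8.66, 8.62 and 8.57 under EED226, against 9.20, 9.18 and 9.07 under DMSO, a difference of -0.53 ± 0.10.

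**Figure D3:**
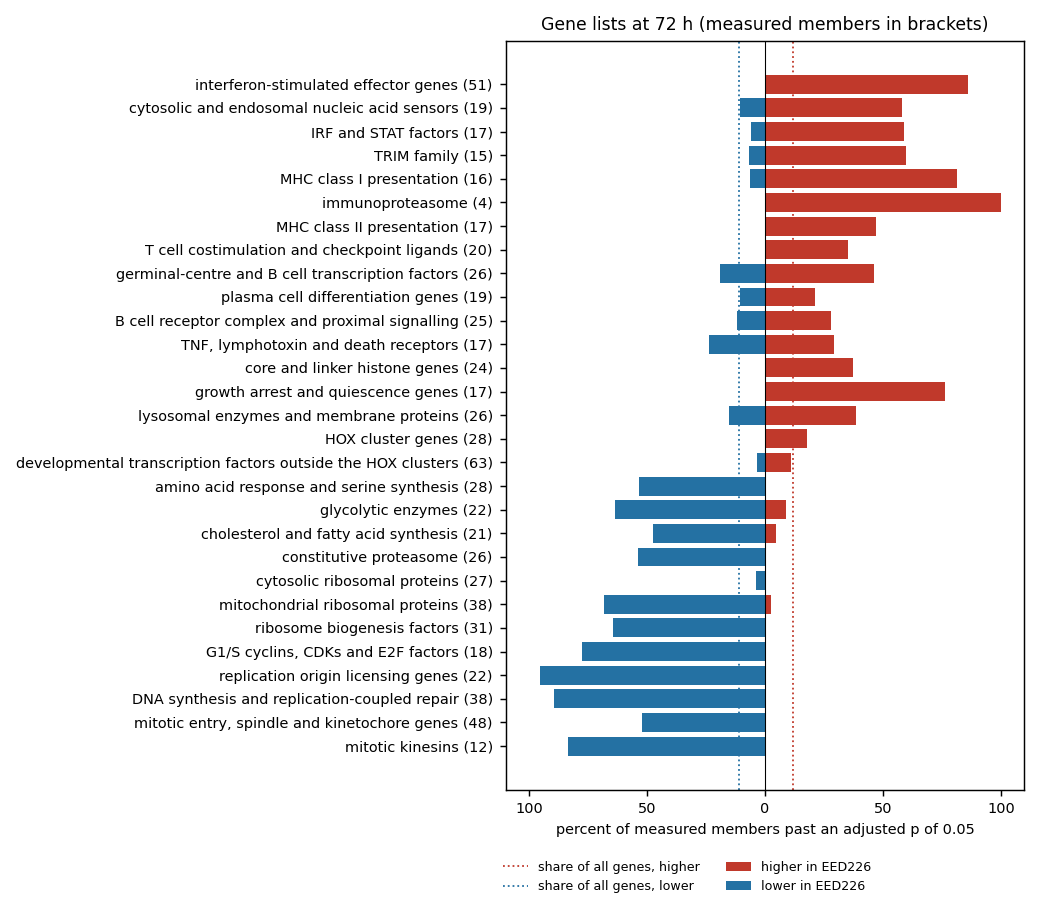
Share of each list's measured members (number in brackets) that passed an adjusted p of 0.05 at 72 h, with rises to the right in red and falls to the left in blue. Dotted lines mark the shares over all genes, 11.7% higher and 11.2% lower; interferon-stimulated effectors reach 44 of 51 higher and licensing genes 21 of 22 lower.

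Growth and metabolic lists leaned the same way as the cell cycle. Of 31 ribosome biogenesis factors, 20 fell and none rose, with a median of -0.27, among them POLR3G, a subunit of RNA polymerase III, which fell by 0.55, and WDR12, which fell by 0.48. Of 38 mitochondrial ribosomal proteins, 26 fell and 1 rose. The 27 cytosolic ribosomal proteins hardly differed, with a median of 0.00 after rounding and RPL3 alone below the threshold at -0.16, a call lost in 4 of 6 fits with 1 array left out, in the 6 arrays alone and with the ACTB gap in the fit. MYC, which drives ribosome production, differed by 0.04 (adjusted p = 0.747), while MXI1, an antagonist of MYC that binds MAX, rose by 1.22 ± 0.12.

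Of 22 glycolytic enzymes, 14 fell and 2 rose, with a median of -0.19, and in the 6 arrays alone 8 fell and 1 rose. Without EED226 replicate 3, 11 fell and none rose. PFKP, the platelet-type phosphofructokinase, fell by 0.53, GPI by 0.60 and LDHA by 0.19, the last with an adjusted p of 0.0858 in the 6 arrays alone. Of 21 genes of cholesterol and fatty acid synthesis, 10 fell and 1 rose. FASN, fatty acid synthase, read 7.59, 7.71 and 7.86 under EED226, against 8.71, 8.41 and 8.38 under DMSO, a difference of -0.78 ± 0.12. Without EED226 replicate 2, the list held 5 falls. GAPDH, often used as a stable reference, fell by 0.21 and HPRT1 by 0.35, and 5 of 10 reference genes fell while 2 rose. In the 6 arrays alone 3 fell and none rose, with GAPDH at an adjusted p of 0.061. HPRT1 did not pass with the mean of its probe sets (-0.10, adjusted p = 0.428). Lysosomal genes leaned upward, with 10 of 26 higher and 4 lower: CTSB, cathepsin B, rose by 1.29 ± 0.14 and NPC2, which binds cholesterol, by 1.18 ± 0.08.

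The amino acid response was the list in which 1 array decided the size. ATF4 drives this response when amino acids run short, and its targets make asparagine, serine, transporters and tRNA synthetases. Of 28 genes, 15 fell and none rose, with a median of -0.56. ASNS, asparagine synthetase, read 10.17, 10.26 and 10.19 under EED226, against 10.58, 10.68 and 12.28 under DMSO. DDIT3, the gene of CHOP, read 8.06, 7.96 and 8.05 under EED226, against 8.24, 8.09 and 9.86 under DMSO. In both the DMSO array of replicate 3 lay far above its group, and in 19 of the 28 genes it lay at least 0.5 above the mean of the other DMSO arrays. Without it, 11 fell, 1 rose and the median was -0.12. ASNS then differed by -0.42 (adjusted p = 0.000141) in place of -0.97, while DDIT3 (-0.14, adjusted p = 0.385) and ATF5 (-0.38, adjusted p = 0.0824) no longer passed. In a fit of the 6 arrays alone none of these 3 passed, with adjusted p of 0.133 for ASNS, 0.294 for DDIT3 and 0.151 for ATF5.

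**Figure D4:**
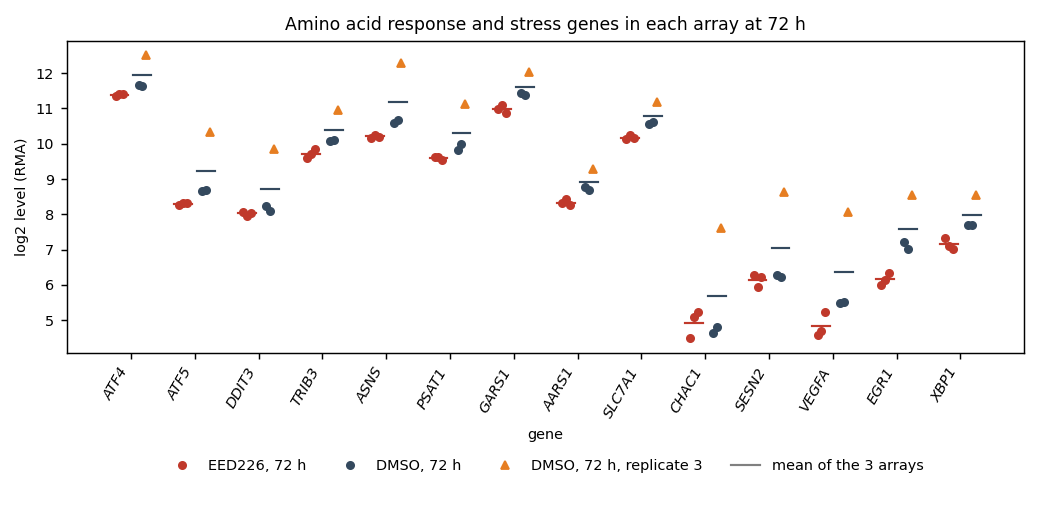
Log2 level of amino acid response and stress genes in each array at 72 h, with EED226 (red) left of DMSO (dark, with replicate 3 as an orange triangle); lines are means of 3. The orange triangle lies above the other DMSO points in every gene shown. Measured from the mean of the other DMSO points, it lies 2.89 higher for CHAC1 and 2.56 higher for VEGFA.

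The same array bore on other named falls. VEGFA, the angiogenic factor, read 4.58, 4.70 and 5.23 under EED226, against 5.49, 5.51 and 8.07 under DMSO. Its difference of -1.52 ± 0.37 became -0.67 without DMSO replicate 3 (adjusted p = 0.00840), and its adjusted p was 0.136 in the 6 arrays alone. EGR1, an immediate early factor, read 6.01, 6.14 and 6.33 under EED226, against 7.21, 7.03 and 8.55 under DMSO, with a difference of -1.44 that became -0.96 (adjusted p = 0.0404). NHSL1, an actin regulator, differed by -2.01 with and -1.67 without it. ETV5, an ETS factor downstream of ERK, read 7.46, 7.67 and 7.59 under EED226, against 8.67, 8.57 and 9.23 under DMSO, and differed by -1.25 with and -1.05 without it. These 4 thus remained lower, by smaller amounts. TSC22D3, the glucocorticoid-induced leucine zipper gene, rose by 0.67, and by 1.05 without that array, but did not pass in the 6 arrays alone (adjusted p = 0.130) or with the mean of its probe sets (0.22, adjusted p = 0.122).

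Developmental genes under PRC2 in other tissues stayed mostly dim. Of 63 developmental transcription factors outside the HOX clusters, 39 lay below the lowest array median in both groups, 7 rose and 2 fell. Over all genes 11.7% rose and 11.2% fell, so the share of rises in this list was close to that of all genes. MEIS1, a HOX cofactor, read 7.41, 7.15 and 7.34 under EED226, against 5.29, 5.11 and 5.69 under DMSO, a 3.83-fold rise. SOX9 read 9.78, 9.66 and 9.82 under EED226, against 8.07, 8.10 and 7.99 under DMSO, a 3.25-fold rise. SNAI2, a zinc finger repressor, rose by 1.04 ± 0.07. WT1 fell by 0.96 and lay at 5.89 in DMSO replicate 3, above the other DMSO arrays at 4.84 and 4.75. Of 28 HOX genes, 16 were dim in both groups and 5 rose, all in the B and C clusters: HOXB3 by 1.53 ± 0.15, HOXC6 by 1.12 ± 0.16, HOXC4 by 0.69, HOXB7 by 0.66 and HOXB4 by 0.46.

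Several of the largest rises belonged to none of the immune lists. RIN2, an exchange factor for the endocytic GTPase RAB5, read 8.85, 8.65 and 9.13 under EED226, against 3.93, 3.96 and 4.33 under DMSO, a 27.9-fold rise. HEPACAM2, an adhesion protein of the immunoglobulin family, read 7.79, 7.61 and 7.88 under EED226, against 3.04, 2.95 and 2.97 under DMSO, a 27.4-fold rise from dim values. ABAT, the transaminase that degrades GABA, rose 16.9-fold, and TMEM100, a membrane protein, 16.8-fold. P4HA2, a collagen prolyl hydroxylase, read 7.08, 6.90 and 7.48 under EED226, against 3.58, 3.47 and 3.40 under DMSO, which are dim, whereas its paralogue P4HA1 fell by 0.87 ± 0.07. Of the 533 genes that rose at least 2-fold, 58 were in the interferon effector, sensor, IRF and TRIM lists. These lists hold 51, 19, 17 and 15 measured genes, too few to have held most of the 533. Within them 38, 9, 7 and 4 genes rose at least 2-fold, beside 2.7% of all genes.

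Markers of other blood and tissue cells were read as well, and their part in the results was not tested. Of 16 myeloid markers, 12 lay below the lowest array median over the 6 arrays, and 2 rose: MPEG1, the pore-forming protein perforin-2, at 9.47, 9.71 and 9.59 under EED226 against 5.49, 6.16 and 6.04 under DMSO, and LYZ, lysozyme, by 1.33 from a dim level. CD14 differed by 0.05 and CSF1R by -0.08, both dim in both groups. The summed level of the list was 9.84 to 10.03 under EED226, against 7.97 to 8.12 under DMSO, in log2. Its median difference was -0.03, and 14 of the 16 markers did not pass. PECAM1, an adhesion protein of endothelium and leukocytes, rose 10.2-fold, while VWF was dim in both groups. The summed level of 16 endothelial and fibroblast markers was 13.34 to 13.38 under EED226 against 12.71 to 12.77 under DMSO, and DCN, a proteoglycan, was the brightest of them and rose by 0.60. The median difference of these 16 was -0.06, and 14 did not pass. The sum of 17 T and NK markers was 10.87 to 11.09 under EED226 against 11.01 to 11.23 under DMSO. The sum of 11 erythroid, platelet and epithelial markers was 7.39 to 7.53 under EED226 against 7.39 to 7.46 under DMSO.

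Several genes named above have more than 1 probe set, and with the mean of their probe sets they passed in the same direction with a difference more than 1.5 times smaller. Among rises this held for RIN2 (2.65), P4HA2 (1.70), PECAM1 (1.95), RNF213 (1.48), SOCS1 (0.52), CD48 (1.19), IFNLR1 (0.56), ELL2 (0.35), TNFRSF21 (1.38) and CASP4 (1.5). It held as well for PRKCB (0.48), BTG1 (0.69), CYLD (0.75), NFKBIZ (0.93), HOXB3 (0.78), LYZ (0.73) and CD74 (0.24). Among falls it held for NHSL1 (-0.67), VEGFA (-0.63), LTB (-0.67), S1PR2 (-0.48), CGAS (-0.47), FASN (-0.38), XBP1 (-0.29), ATF5 (-0.61), E2F2 (-0.46), PFKP (-0.31) and PSMD12 (-0.28). CD40 (1.5) and MS4A1 (0.80) had larger differences by that measure. All values are log2 differences between EED226 and DMSO at 72 h.

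The number of genes that passed at 72 h lay between those at 48 h and 6 days, which use other arrays. At 48 h 1866 genes passed (9.44%), 6.76% of all genes higher and 2.68% lower. At 6 days 10081 passed (51.0%), 23.7% higher and 27.3% lower. In that comparison DMSO replicate 3 stood apart: the upper quartile of its values was 6.10, against 6.52 and 6.54 in the other DMSO arrays of 6 days. The 6-day comparison was not refitted without it. Of the 2321 genes higher at 72 h, 1240 were also higher at 48 h, which is 53.4% of the 72 h list and 92.7% of the 48 h list. A smaller part of the falls was shared, 447 genes, or 20.2% of the 72 h list and 84.5% of the 48 h list. With the 6-day comparison, 2158 rises were shared (93.0% of the 72 h list and 46.1% of the 6-day list), as were 1894 falls (85.5% and 35.1%). In the opposite direction at 6 days were 6 of the genes that rose and 31 of those that fell at 72 h.

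The change of the effect between 48 and 72 h passed for 101 genes (0.511%), 93 upward (0.47%) and 8 downward (0.0405%). With the replicate number as a term in the fit it passed for 166, 142 upward and 24 downward. The other values given here are from the fit without that term. IFNB1 stood 0.61 above DMSO at 48 h and 2.59 at 72 h, a change of 1.97 ± 0.28 (adjusted p = 0.000148). IFIH1 stood at 2.73 and then 5.01, a change of 2.27 ± 0.24. The largest upward changes were those of RNF213, an antiviral ubiquitin ligase, by 2.75, H2AC6 by 2.71, IFI27 by 2.37 and GIMAP2, a lymphocyte GTPase, by 2.35. Of the 51 effector genes 10 changed upward in this interval, among them MX2 by 1.17 ± 0.19, whereas IFIT1 (0.57, adjusted p = 0.299) and MX1 (0.30, adjusted p = 0.701) did not pass. None of the cell cycle lists had a member whose change passed between 48 and 72 h, although CDC45 stood at -0.45 and then -0.96 (adjusted p of the change = 0.196).

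Between 72 h and 6 days the change passed for 4924 genes (24.9%), 2802 upward (14.2%) and 2122 downward (10.7%). Of the 51 effectors, 14 changed upward and none downward, and the changes of MX1 (0.03 ± 0.18) and IFIT1 (-0.29 ± 0.19) did not pass. Of the 22 licensing genes 20 changed downward, as did 36 of 38 DNA synthesis genes and 47 of 48 mitotic genes. The median difference of the licensing list was -0.23 at 48 h, -0.51 at 72 h and -1.83 at 6 days, and that of the mitotic list -0.03, -0.30 and -1.41. LTB, lower at 72 h, was higher at 6 days by 0.64, a change of 1.86 ± 0.30. RAG1, a recombinase of early lymphocytes, was dim at 72 h (2.52, 3.05 and 2.72 under EED226 against 2.15, 2.40 and 2.24 under DMSO) and changed by 4.60 towards 6 days. The DMSO arrays of 6 days correlated at 0.986 or above, lower than the 0.9944 or above within other groups. With its probe set chosen on 0 h and DMSO arrays, RAG1 was at -0.0618 at 72 h and its change was -0.0034 (adjusted p = 0.990), so neither call was kept.

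**Figure D5:**
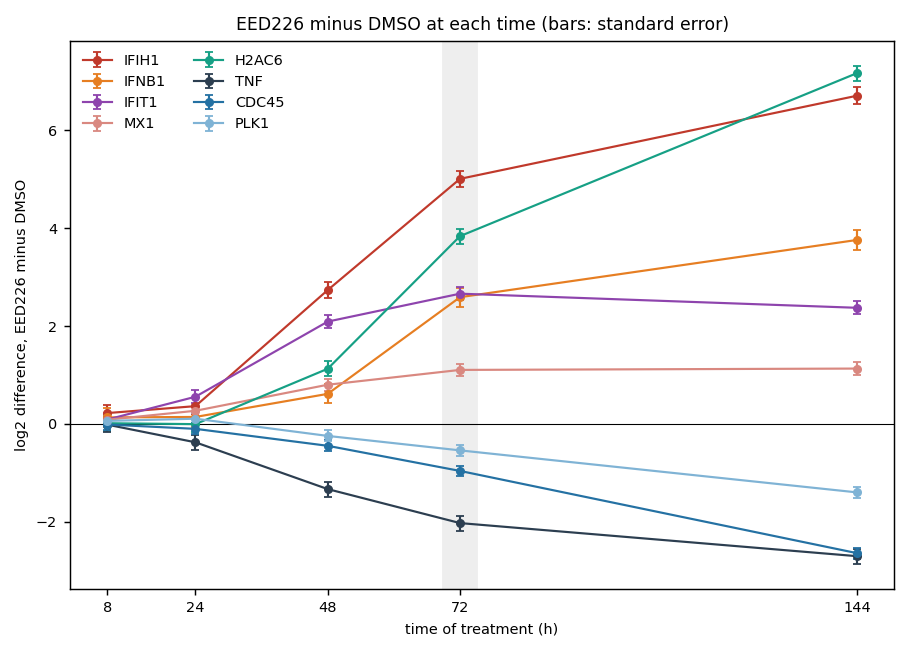
Difference between EED226 and DMSO (log2, vertical) for 8 genes at 8, 24, 48 and 72 h and 6 days (horizontal, hours of treatment), with standard errors from the fit over 33 arrays; the 72 h comparison is shaded. IFIH1 stands at 2.73, 5.01 and 6.70 at the last 3 times, IFIT1 at 2.09, 2.66 and 2.37, and CDC45 at -0.45, -0.96 and -2.64.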

How the data were processed

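Total RNA of Karpas422 cells was labelled with a 3' IVT kit and read on Affymetrix arrays, according to the labels' protocols. What the authors deposited is 1 log2 value for each probe set and array, computed with RMA per the submitters' processing notes, and the RMA version is not given in the sources used here. The number of arrays, 33, limits the precision. Of 54675 probe sets, 62 were controls, 41091 had 1 gene symbol in GEO's platform annotation, 1801 had several and 11721 had none; named genes come from the 41091, as the brightest probe set by the mean of all arrays (19775 genes). Groups followed the sample titles. limma 3.58.1 in R 4.3.3 (lmFit and eBayes, 11 groups, 22 residual degrees of freedom) was fitted over all arrays, and p-values were adjusted by Benjamini-Hochberg over all genes at 0.05. Each group held 3 arrays, and no batch is stated. Data were also simulated from the mean of each gene over all 33 arrays and its spread within groups, with 200 of 19775 genes changed. Of these, 61.2% of changes of 0.5, 95.5% of 1 and 100% of 2 (log2) were recovered, with 12 false calls. The draws were independent, so they hold no deviation shared by many genes of an array, such as that of DMSO replicate 3 at 72 h.

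The members and the 55 gene lists (1188 genes, 1073 measured) were chosen with earlier results of these data known, and a list is described by counts and its median. Genes named come from a rule, though not every gene under it is named. It took the 20 largest rises and 15 largest falls among genes that passed without overlap of groups and lay above the lowest array median. It also took fixed members of each list, its 3 smallest p and 2 largest differences, and the 4 largest changes between times in each direction. Other list members named were chosen after their values were seen. Promoter sequences are RefSeq's, for GRCh38.p14. Alternatives were another choice of probe set, centring, normalization, filter, prior, array weights, block and arrays left out.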

Additional observations from a re-analysis of the deposited data

Results flagged for a closer look

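The effect of EED226 was tested for a change between times. From 48 to 72 h it changed upward for 93 genes and downward for 8, or for 142 and 24 with the replicate number as a term in the fit. The 4 largest upward changes (log2) were those of RNF213 (2.75), H2AC6 (2.71), IFI27 (2.37) and GIMAP2 (2.35). The 4 largest downward changes were those of ZNF826P (-0.97), SYNGR1 (-0.57), FAM167A (-0.54) and DLEU1 (-0.49).

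From 72 h to 6 days the effect changed upward for 2802 genes and downward for 2122. The largest upward changes were those of RAG1 (4.60), ZNF595 (4.33), GCA (3.99) and TNFRSF21 (3.78). The value of RAG1 rests on its probe set: chosen on 0 h and DMSO arrays, the change was -0.0034 (limma adjusted p = 0.990). The largest downward changes were those of LGALS13 (-3.04), CHEK1 (-2.0), DNAI1 (-1.90) and MCM10 (-1.88). These changes set 4 groups of arrays against each other. In the group of DMSO at 6 days replicate 3 stood apart, and these changes were not refitted without it.

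Probe sets with no gene name here took no part in the comparisons above. Of these 11721, 540 passed in limma at 72 h, 303 higher and 237 lower, and 74 rose and 7 fell at least 2-fold.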

How the results depend on the processing

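Genes passing at 72 h numbered 4536 in the fit reported, between 3705 and 4136 when 1 of the 6 arrays was left out, 4062 in a fit of the 6 arrays alone and 5469 with array weights. Without DMSO replicate 3 of 6 days, which enters the estimate of the spread, 5044 passed. With array medians subtracted, 2050 were higher and 2630 lower. A pair of choices was made after seeing the data: the ACTB gap as a term gave 4318, and leaving out both 72 h arrays numbered 3 gave 3415. Genes at least 2-fold lower, 19 in all, ranged from 20 to 29 when 1 array was left out, with 29 both without EED226 replicate 2 and without DMSO replicate 2. No label says that replicate numbers pair the samples. In their deviations from the group means, same-numbered arrays correlated at 0.318, 0.199 and 0.297 at 8 h, 0.228, 0.11 and 0.358 at 24 h, and 0.162, 0.169 and 0.151 at 48 h. The values were 0.058, -0.009 and 0.233 at 72 h and 0.046, 0.081 and 0.126 at 6 days. Differently numbered arrays lay between -0.128 and -0.024 at 48 h, all below the same-numbered ones. They lay between -0.188 and 0.162 at 72 h and between -0.137 and 0.089 at 6 days. At these later times they overlapped the same-numbered ones, which leaves a pairing unclear there. With a replicate block, 4927 genes passed at 72 h, and the change from 48 to 72 h passed for 166 genes (142 upward and 24 downward) in place of 101. When the brightest probe set was chosen on 0 h and DMSO arrays, RAG1 was at -0.0618 at 72 h and its change towards 6 days was -0.0034. With the mean of all probe sets of a gene, 4136 genes passed, 333 rose and 12 fell at least 2-fold in place of 533 and 19, and MAX was at -0.0099. The cause of these reversals was not tested. Levels below the lowest array median limit what can be read of dim genes.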
